A study of Mus musculus with 6 samples.

Results

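Mouse embryonic fibroblasts treated with TNF-α, cycloheximide and z-VAD-fmk together (TCZ) were compared with fibroblasts given phosphate-buffered saline (control), across all genes of the deposited count table. The comparison held 4 of the 6 libraries in the series, 2 for each group. Of 48897 genes in the table, 18563 had enough counts to be tested. Another group of 2 libraries received TNF-α with cycloheximide but no z-VAD-fmk (TC), and is given beside TCZ where the direct test of TCZ against TC bears on a gene. All groups were C57BL/6 cells at passages 5 to 7; these fibroblasts are connective tissue cells taken from mouse embryos. Genes outside the naming rule given with the methods were chosen after their values were seen. The sources used here do not give doses, treatment times or any solvent added to the controls. Because TNF-α and cycloheximide always came together, what each of them did cannot be told apart. Because RNA came from whole cultures in which cells may die, fewer cells of a kind and less RNA per cell cannot be told apart either.

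TNF-α binds the receptor TNFR1, encoded by Tnfrsf1a, and a receptor complex of TRADD, RIPK1, TRAF2 and cIAP ubiquitin ligases then turns on the kinases TAK1 and IKK and the transcription factor NF-kB. NF-kB switches on inhibitors of itself, cytokines and survival proteins such as cFLIP (Cflar), an inhibitor of caspase-8. Cycloheximide stops ribosomes, so that new mRNAs of this kind are not translated, and caspase-8 recruited by FADD can then start apoptosis. z-VAD-fmk blocks caspases. With caspase-8 blocked, RIPK1 and RIPK3 can activate MLKL, a protein that breaches the plasma membrane, and the cell dies by necroptosis.

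Library totals ran from 24922627 to 52909926 counts in the 4 libraries, and control 2 and TCZ 2 were the shallower ones. These 2 libraries also stood apart in a short RNA that is not polyadenylated: Rn7s1, the RNA of the signal recognition particle, was at 101 CPM (counts scaled to each library's total after TMM normalisation) in control 1 and 44.4 in control 2, and at 119 in TCZ 1 and 0.165 in TCZ 2. Fibroblast markers were high throughout, with a summed level of 25513 and 23625 CPM in control and 24383 and 22069 in TCZ over 13 genes. Of these 13, 1 was higher and 5 were lower in TCZ, and the 5 included Pdgfra, Prrx1, Twist1 and Twist2. The counts were 2 higher and 7 lower without control 2 and TCZ 2, 3 and 7 with a term that marks these libraries, and 0 and 9 with library totals alone. Among 14 macrophage and leukocyte markers, 11 were tested, 4 were higher and 1 was lower, with a summed level of 17.2 and 17.3 CPM in control and 28.9 and 31.1 in TCZ. Aif1 was at 0 in TCZ 1, and the pan-leukocyte gene Ptprc stayed under 1 CPM in each control and TCZ library. Of 8 endothelial markers, 6 were tested and 3 were higher, with summed levels of 12.6 and 13.3 CPM in control against 57.7 and 56.6 in TCZ, and the 3 were Pecam1 (0.0206 and 0.133 CPM in control, 10.9 and 10.8 in TCZ), Kdr (9.11 and 9.62, then 40.8 and 39.1) and Tek (1.57 and 1.36, then 3.07 and 3.48). Tie1, also a defining marker, was at 0 in control and TCZ 1. Their part in the results below was not tested.

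Most genes tested changed in TCZ, and more genes rose than fell at the larger sizes of change on the TMM scale. Of the genes tested, 5851 (31.5%) were higher and 5313 (28.6%) were lower at an adjusted p under 0.05 by edgeR's quasi-likelihood test with Benjamini-Hochberg adjustment, together 60.1%. Scaled by library totals alone, 4556 were higher and 7017 lower, since that scaling moves the median of all genes by -0.20 on the log2 scale, and every direction below is relative to the TMM scale. A fitted change of at least 2-fold was found in 3403 genes upward (18.3%) and 2562 downward (13.8%). This excess upward at 2-fold was lost with a filter of 50 counts in 2 libraries (1898 upward and 1966 downward) and with library totals alone (3030 and 3206). At 8-fold or more the counts were 1846 upward and 387 downward, and at 64-fold or more 799 and 43. Genes with 0 counts in both control libraries pass the filter on low counts only through treated libraries, which largely sets their direction. There were 714 such genes and 671 of them were higher, while 58 genes had 0 counts in both TCZ libraries and 42 of them were lower. The part of the filter in the excess at larger sizes was not tested. The median log2 fold change of all genes was 0.05, with 5% of genes under -2.14 and 5% above 5.35. Of the 18563 genes, 14452 (77.9%) had groups that did not overlap. The labels do not say whether a group's libraries are separate cultures. Each p-value therefore sets the difference against the scatter of libraries within all groups, TC included, and that scatter may be technical.

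**Figure D1:**
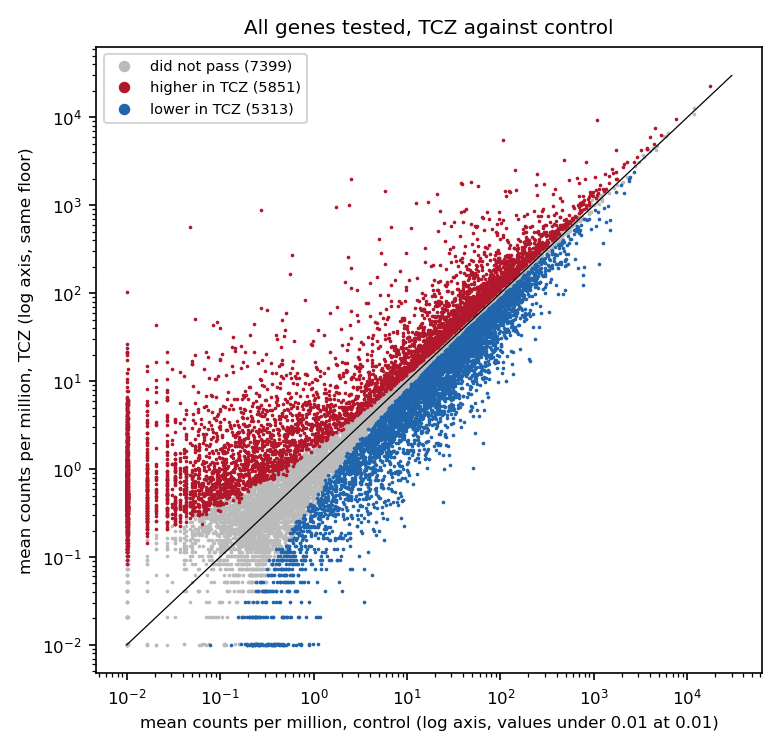
Mean level of each gene tested in control (x axis) and TCZ (y axis), both in CPM on log axes, values under 0.01 drawn at 0.01, with the line of equal level; red points are the 5851 genes higher in TCZ, blue points the 5313 lower, grey points those that did not pass. The column of points at the left edge holds genes with no or almost no reads in control, and it has no counterpart of the same size along the bottom. Genes without reads in control pass the filter on low counts only through treated libraries.

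The first genes to consider are those of the TNF receptor complex and the necrosome. Of 20 such genes, all tested, 6 were higher and 11 lower in TCZ, with a median log2 fold change of -0.58. Tnfrsf1a (mm10, chr6:125349723-125362483, plus strand) was at 103 and 100 CPM in control 1 and 2, and at 24.8 and 25.2 in TCZ 1 and 2 (log2 fold change -2.03 ± 0.08 SE, edgeR adjusted p = 7.67e-16). The receptor's mRNA was thus 4.07-fold lower with no overlap between the groups, and at 61.6 and 59.1 CPM in TC it lay between the other groups. Tnfrsf1b, the gene of the other TNF receptor, fell from 30.1 and 32 to 10.8 and 10.4 CPM. Tradd, whose protein is the first adaptor on TNFR1, fell from 10.9 and 9.36 to 5.4 and 4.43 CPM. The 6 members that rose included the death receptors Fas and Tnfrsf10b and the TWEAK receptor Tnfrsf12a. Fas stood at 2.39 and 2.26 CPM in control and at 27.1 and 25.6 in TCZ (11.3-fold, edgeR adjusted p = 1.05e-16). Tnfrsf12a rose from 185 and 170 to 812 and 699 CPM.

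The 3 genes that carry out necroptosis were lower in TCZ by unequal amounts. Ripk1 was at 53.6 and 52.6 CPM in control and at 28.5 and 31.5 in TCZ (log2 fold change -0.83 ± 0.08 SE, edgeR adjusted p = 1.38e-08). Ripk3 was at 126 and 115 CPM in control against 102 and 90.3 in TCZ, the smallest change of the 3 at -0.32 ± 0.08 SE on the log2 scale. Mlkl (chr8:111311681-111338456, minus strand) went from 15.2 and 15.8 CPM to 7.65 and 8.19 (log2 fold change -0.97 ± 0.12 SE, edgeR adjusted p = 2.22e-07). In TC, where caspases were not blocked, Mlkl was instead above control at 23.7 and 19.8 CPM. The direct test of TCZ against TC gave a log2 fold change of -1.46 for Mlkl (edgeR adjusted p = 3.78e-10), and -0.05 for Ripk1 and -0.14 for Ripk3, both of which missed the threshold. Casp8, the protease that z-VAD-fmk is meant to hold in check, fell from 37.4 and 33.9 to 16.4 and 18.2 CPM. Fadd, its adaptor, was at 12.4 and 13.6 CPM in control and 11.7 and 12.4 in TCZ (log2 fold change -0.11 ± 0.11 SE, edgeR adjusted p = 0.386). Cflar, which encodes the caspase-8 inhibitor, moved the other way, from 132 and 118 to 194 and 186 CPM (log2 fold change 0.61). Zbp1, a nucleic acid sensor that can also engage RIPK3, stayed at or below 0.68 CPM in every library of the comparison. The Zbp1 log2 fold change of 1.93 lost its call without TCZ 1 (1.73, edgeR adjusted p = 0.054) and without control 1 (1.21, edgeR adjusted p = 0.148), and was 2.85 without control 2 and 3.0 without control 2 and TCZ 2 (edgeR adjusted p = 0.00522 in both).

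The cells' own Tnf transcript was almost absent in control, with 2 counts over both libraries. It had 627 counts in TCZ, at 8.8 and 8.27 CPM, a ratio of 339 with an exact 95% counting interval of 94 to 2808. TC lay between them at 1.28 and 1.85 CPM, and TCZ exceeded it by 2.45 on the log2 scale (edgeR adjusted p = 1.95e-08). This gene encodes the ligand that was also added to the cultures.

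Ubiquitin ligases and kinases downstream of the receptor moved in both directions. Of 14 TRAF, IAP and LUBAC genes 7 were higher and 4 lower, and of 11 IKK, TAK1 and NIK kinase genes 6 were higher and 4 lower. Birc3, the gene of cIAP2, rose from 15.9 and 15.2 to 95.7 and 94.2 CPM, and Traf2 rose from 17.3 and 16.2 to 38.1 and 37.9. Traf1, an NF-kB target, had 0 counts in control 1 and 0.265 CPM in control 2, 84.6 and 90.6 CPM in TC, against 16.3 and 13.4 in TCZ. Traf1 therefore rose in both treatments, with TCZ below TC by 2.54 log2 units (edgeR adjusted p = 2.39e-13). Traf4 went down from 47.4 and 47.7 to 9.07 and 8.4 CPM. Map3k14, which encodes the kinase NIK of the alternative NF-kB route, was at 9.03 and 10.1 CPM in control and at 87 and 75.6 in TCZ. Ikbkb, the gene of IKK-beta, was at 41.6 and 39.3 CPM in control and at 17 and 12.8 in TCZ.

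Caspase and apoptosome genes were lower more often than higher, at 9 lower and 4 higher of 18 tested (median log2 fold change -0.39). Casp2 fell from 17.3 and 17.5 to 3.09 and 3.39 CPM, a 5.42-fold drop. Casp9, the initiator caspase of the mitochondrial route, was at 13.9 and 11.2 CPM in control and 4.39 and 3.06 in TCZ. Its activating platform Apaf1 fell from 76.2 and 75.6 to 30.8 and 32.8 CPM. Dffb, the nuclease that cuts DNA between nucleosomes, went from 3.03 and 3.09 to 0.124 and 0.0827 CPM. The members that rose included Casp4, Nlrp3 and Pycard. Casp4, an inflammatory caspase that senses lipopolysaccharide, rose from 0.33 and 0.829 to 10.9 and 11 CPM.

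In the BCL2 family, which controls mitochondrial permeability, 7 of the 15 genes tested were higher and 5 lower. Bcl2l1, the gene of the survival protein BCL-XL (chr2:152758732-152834797, minus strand), went from 97.4 and 87.6 CPM in control to 25.3 and 22.5 in TCZ, but was at 127 and 129 in TC. TCZ was lower than TC by 2.41 log2 units (edgeR adjusted p = 9.51e-16). Mcl1, another survival gene, moved oppositely, from 192 and 175 CPM to 600 and 567. Among proteins that promote death, Pmaip1 (NOXA) rose 4.76-fold, from 38.4 and 35.1 to 176 and 175 CPM, and Bcl2l11 (BIM) rose from 14 and 16.5 to 54 and 49.7. Bmf, also a BH3-only gene, fell from 1.15 and 1.63 to 0.0825 and 0.124 CPM. Members with opposed roles thus rose together and fell together.

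**Figure D2:**
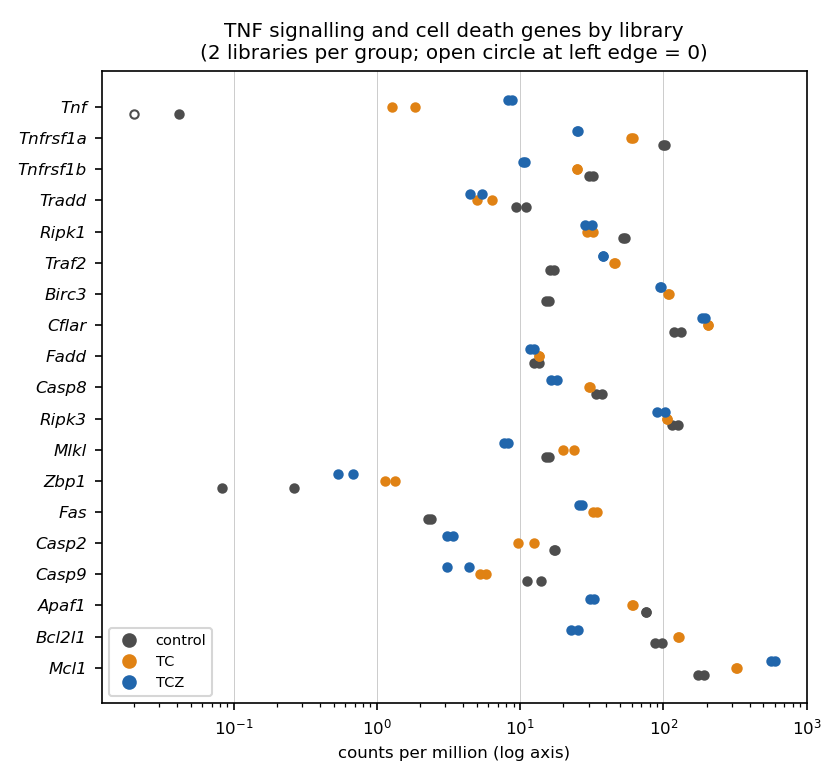
Level of 19 genes of TNF signalling and cell death in each library, in CPM on a log axis (grey control, orange TC, blue TCZ; 2 points a group, open where the level is 0). Tnfrsf1a, Casp8, Apaf1 and Bcl2l1 show TCZ to the left of both other groups, while Tnf and Mcl1 show it to the right.

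The NF-kB circuit was the signalling list in which the largest share of members rose. Of 17 genes of NF-kB subunits, inhibitors and related feedback proteins, 16 were higher, none was lower, and the median log2 fold change was 3.14. Rel, which encodes the subunit c-Rel, rose from 3.88 and 3.45 to 79 and 74.2 CPM (20.7-fold), and TC was at 25 and 22.6. Rela, Relb, Nfkb1 and Nfkb2 rose 1.59, 3.55, 3.53 and 2.89 log2 units. Nfkbia, the gene of IkB-alpha, was at 13 and 11.9 CPM in control and at 1137 and 979 in TCZ (log2 fold change 6.40 ± 0.10 SE, edgeR adjusted p = 6.00e-22). Tnfaip3, the gene of the ubiquitin-editing enzyme A20, rose from 5.9 and 5.74 to 1566 and 1350 CPM. Against TC, 7 of the 17 were higher in TCZ and 4 lower (28.2% and 27.9% of all genes tested), with Nfkbia and Tnfaip3 higher by 1.69 and 1.57 log2 units and Rel by 1.69. Nfkb1 differed between TCZ and TC by -0.01 (edgeR adjusted p = 0.926), and Nfkbie was lower in TCZ, at 32 and 30.5 CPM against 101 and 103. Tnip2 was the member that did not pass, at 6.31 and 6.4 CPM in control and 5.94 and 6.74 in TCZ.

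RefSeq promoter sequences (GRCm38.p6, from 250 bases before to 50 after each gene's start) show where the letters of an NF-kB site lie in these genes. Of the 17 members, 13 matched an entry, and 8 of the 13 held the site on one strand or the other, against 640 of 12194 promoters of genes tested (5.25%). The site was in 5 of 10 chemokine promoters, 3 of 19 of the cytokine list and 0 of 14 of the adhesion list. A match is a description of letters and not of binding. One window of 30 bases from each of the 8 is given here, 5′ to 3′ on the gene's strand. They are shown as members of the list described above. Capitals mark a single match in each window. In Rel, Nfkb2 and Tnip1 further matches overlap it and run on into the lower-case letters.
Rel (chr11:23771042-23771071, minus): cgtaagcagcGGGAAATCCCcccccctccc
Nfkb2 (chr19:46304688-46304717, plus): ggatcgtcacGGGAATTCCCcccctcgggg
Nfkbia (chr12:55492657-55492686, minus): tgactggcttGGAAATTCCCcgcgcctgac
Nfkbie (chr17:45555584-45555613, plus): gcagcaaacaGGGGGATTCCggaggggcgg
Bcl3 (chr7:19822734-19822763, minus): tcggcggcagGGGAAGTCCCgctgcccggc
Tnfaip3 (chr10:19015403-19015432, minus): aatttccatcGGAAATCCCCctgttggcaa
Tnip1 (chr11:54962979-54963008, minus): ctccatcatgGGGGAATTCCcctcctgcct
Tnip3 (chr6:65590334-65590363, plus): gagacatcctGGGAAATCCCagttacatgg

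Chemokines, which draw neutrophils, monocytes and lymphocytes, were the next group in the cascade. Of 17 tested, 10 were higher and 3 lower, with a median log2 fold change of 3.38. Cxcl1 was at 1.88 and 1.63 CPM in control, 112 and 114 in TC, against 1035 and 891 in TCZ (542-fold over control, edgeR adjusted p = 3.89e-23). Its neighbour Cxcl2 was at 0.0618 and 0.0332 CPM in control, 42.3 and 47.2 in TC, against 610 and 513 in TCZ. Both neutrophil chemokines therefore rose in TC and were higher again in TCZ, by 3.10 and 3.65 log2 units over TC. Ccl2, a monocyte chemokine, rose from 38.7 and 36.9 to 1942 and 1641 CPM. Cxcl10, an interferon-responsive chemokine, was at 0.536 and 0.597 CPM in control and at 182 and 152 in TCZ, and at 166 and 170 in TC. Cxcl5 went down, from 8.84 and 8.92 to 3.44 and 2.81 CPM, although TC stood above control at 39.8 and 40.1 (TCZ against TC -3.64, edgeR adjusted p = 2.73e-16). Cxcl12, a lymphocyte and stem cell chemokine of resting fibroblasts, fell from 182 and 168 to 92 and 97.6 CPM.

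The stretches just before the starts of Cxcl1 and Cxcl2 are shown because both genes are among the 12 largest rises and both hold the same run of 11 letters matching the NF-kB site (capitals, RefSeq, GRCm38.p6, plus strand). The run begins 71 bases before the start of Cxcl1 (chr5:90890995-90891244) and 97 bases before that of Cxcl2 (chr5:90903649-90903898). Aligned on the run with 45 bases on each side, the 2 promoters shared 44 of 101 letters (43.6%).
Cxcl1: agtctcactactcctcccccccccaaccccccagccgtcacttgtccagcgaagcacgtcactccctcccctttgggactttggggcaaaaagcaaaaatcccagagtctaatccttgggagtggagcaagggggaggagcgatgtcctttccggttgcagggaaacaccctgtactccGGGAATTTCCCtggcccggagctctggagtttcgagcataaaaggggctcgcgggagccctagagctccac
Cxcl2: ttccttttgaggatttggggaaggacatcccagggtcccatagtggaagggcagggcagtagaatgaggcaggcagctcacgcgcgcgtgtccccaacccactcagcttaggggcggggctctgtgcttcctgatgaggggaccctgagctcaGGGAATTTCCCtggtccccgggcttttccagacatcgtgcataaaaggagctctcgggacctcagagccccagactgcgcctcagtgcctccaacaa

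Among 30 cytokines and growth factor ligands tested, 18 were higher and 6 lower, with a median log2 fold change of 0.98. Csf1, the macrophage growth factor, was among the genes with the most counts, at 1133 and 1047 CPM in control and 9684 and 9019 in TCZ (8.58-fold). Csf2, the gene of GM-CSF, had 0 counts in control and 7745 in TCZ, at least 2736-fold higher against a limit of 3 counts over the group. Lif, a cytokine of the IL-6 family, rose from 7.26 and 6.4 to 606 and 541 CPM, with TC at 621 and 690. Il6 itself rose only from 5.13 and 4.55 to 10.2 and 11 CPM, while TC reached 38.2 and 37.1. Hbegf, an EGF receptor ligand, rose 7.15-fold, from 102 and 94 to 714 and 686 CPM. The ligands that fell included Pdgfa (31.3 and 27.8 to 4.02 and 4.34 CPM) and Fgf2 (19.6 and 18.4 to 3.94 and 3.97 CPM), both mitogens of fibroblasts. Pdgfb rose from 0.454 and 0.796 to 29.4 and 27.5 CPM, so the 2 PDGF chains moved apart.

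Adhesion and matrix protease genes gave 10 higher and 3 lower of 23 (10 and 10 with library totals alone). Sele, the gene of E-selectin, was at 0.227 and 0.232 CPM in control, 1.44 and 1.07 in TC, against 48.8 and 40.5 in TCZ (193-fold over control, and 5.16 log2 units over TC, edgeR adjusted p = 3.64e-17). Vcam1, a ligand for leukocyte integrins, rose from 115 and 112 to 1312 and 1214 CPM. Icam1, a second integrin ligand, was at 2.54 and 2.12 CPM in control, 438 and 483 in TC, against 297 and 225 in TCZ. These 3 leukocyte adhesion genes thus rose in TCZ, with TCZ above TC for Sele and Vcam1 and below it for Icam1. Ptgs2, the gene of cyclooxygenase 2, rose 6.76-fold, from 513 and 455 to 3332 and 3213 CPM, with TC at 3138 and 2981.

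Immediate early genes, which cells transcribe within minutes of a stimulus without new protein synthesis, rose broadly. Of 24 AP-1 and ATF factors tested 18 were higher and 2 lower (median log2 fold change 1.55). Fos was at 5.75 and 4.81 CPM in control, 54.6 and 60.7 in TC, against 297 and 277 in TCZ. Fosb followed the same order, at 5.98 and 5.67, then 21.2 and 25.5, then 222 and 206 CPM. Junb rose from 59.9 and 54.5 to 1754 and 1541 CPM and Jun from 151 and 143 to 1568 and 1397. Atf3, a stress-induced repressor, rose 425-fold, from 2.37 and 2.42 to 1069 and 968 CPM. Each of these 5 genes was also higher in TCZ than in TC, by between 1.03 and 3.20 log2 units.

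Of 25 EGR, NR4A, SRF and KLF genes 16 were higher and 8 lower. Egr1 was at 116 and 96.7 CPM in control, 1572 and 1634 in TC, against 5678 and 5351 in TCZ (log2 fold change 5.70 ± 0.10 SE, edgeR adjusted p = 1.18e-21). Egr4 went from 0.309 and 0.232 to 967 and 819 CPM, and Arc, best known as a synaptic gene driven by neuronal activity, from 2.51 and 2.49 to 2132 and 1863. Klf10, a target of TGF-beta, rose 19.9-fold. The falls included Klf13, from 137 and 128 to 15.2 and 15.8 CPM, and Srf itself, the factor that binds promoters of many of these genes, at a log2 fold change of -0.70. The promoter of Egr4 (chr6:85513590-85513839, minus strand, RefSeq, GRCm38.p6) is shown because Egr4 is the other member of the 12 largest rises with NF-kB letters, which begin 152 bases before its start.
Egr4: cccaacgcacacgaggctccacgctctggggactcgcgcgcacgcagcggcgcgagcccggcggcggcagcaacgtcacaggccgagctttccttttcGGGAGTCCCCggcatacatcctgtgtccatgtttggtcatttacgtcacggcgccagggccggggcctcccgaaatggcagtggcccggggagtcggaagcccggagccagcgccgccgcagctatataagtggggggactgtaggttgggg

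Most genes of a list tied to growth factor signalling and its feedback rose with the immediate early genes. Of 28 DUSP, SPRY and related feedback genes 21 were higher and 6 lower (median log2 fold change 1.63). Dusp1, a phosphatase of p38 and JNK, rose 6-fold, from 60.7 and 54.9 to 370 and 324 CPM. Dusp2 went from 0.103 and 0.0995 to 42.5 and 38.3 CPM, and the kinase gene Pim1 from 18.7 and 14.8 to 1166 and 1037. Trib2, a pseudokinase, was the largest fall of the list, from 65 and 65.6 to 2.19 and 1.78 CPM. Among 23 GADD45, IER and BTG genes of growth arrest and stress, 21 were higher and 2 lower, with a median log2 fold change of 2.24. Gadd45b rose from 20.8 and 21.2 to 1423 and 1242 CPM. Zfp36, which encodes tristetraprolin, a protein that marks AU-rich mRNAs for decay, rose from 22.5 and 22.4 to 906 and 817. The 2 that fell were Zfp36l2 and Ier5l, at log2 fold changes of -1.01 and -0.35.

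Genes of mRNA decay machinery, whose products remove poly(A) tails and caps, were split, at 13 higher and 16 lower of 34. With library totals alone 9 were higher and 19 lower. Zc3h12a, an RNase of inflammatory mRNAs known as Regnase-1, rose from 9.3 and 9.72 to 29.6 and 26.7 CPM. The deadenylase gene Cnot6 fell by 1.21 log2 units and Cnot4, a ubiquitin ligase tied to the same complex, rose from 35.5 in both control libraries to 96.2 and 95.2 CPM.

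The interferon-stimulated genes set TCZ apart from TC. Of 40 antiviral genes tested, 19 were higher and 9 lower in TCZ against control (median log2 fold change 0.35), without control 2 and TCZ 2 the counts were 13 and 9, and with library totals alone 11 and 11. In TC against control, which shares the control libraries, 38 were higher and 1 lower with a median of 2.41, where 31.5% of all genes tested were higher and 29.1% lower. The direct test of TCZ against TC found 1 of the 40 higher and 34 lower (28.2% and 27.9% of all genes tested). Ifit1 was at 1.24 and 0.995 CPM in control and 39.4 and 41.5 in TC, against 3.81 and 3.56 in TCZ. Trim25, a ubiquitin ligase of the RIG-I pathway, was at 65.9 and 62.1 CPM in control, 102 and 97.5 in TC, against 20.9 and 19.6 in TCZ, and Dtx3l at 10.1 and 9.75, then 27.9 and 27.8, then 4.16 and 3.19. For these last genes TCZ was the lowest of the 3 groups, not an intermediate. The member above TC was Isg20, an exonuclease gene, at 2.21 and 2.39 CPM in control, 4.49 and 3.44 in TC, against 23.9 and 21.2 in TCZ. Ifnb1, the gene of interferon-beta, had 12 counts in TCZ 1 and none in control or TCZ 2. In TC it had 16 and 7 counts, and the TCZ to TC difference missed the threshold (edgeR adjusted p = 0.584).

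A similar split held for interferon-inducible GTPases and antigen presentation. Of 26 tested, 13 were higher and 4 lower in TCZ, all 26 were higher in TC, and 22 were lower in TCZ than in TC with none higher (10 higher and 4 lower than control with library totals alone). Irgm1, an immunity-related GTPase that controls autophagy (chr11:48865245-48871454, minus strand), was at 45 and 42.7 CPM in control, 120 and 121 in TC, against 6.35 and 6.95 in TCZ. The gap between TCZ and TC was -4.19 log2 units (edgeR adjusted p = 6.94e-19). H2-K1, a class I gene, was at 42.2 and 37.1 CPM in control, 134 and 145 in TC, against 151 and 121 in TCZ, and B2m at 295 and 260, then 408 and 384, then 394 and 369. The TCZ to TC differences of H2-K1 and B2m were -0.04 and -0.05 log2 units, neither past the threshold (edgeR adjusted p = 0.731 and 0.566). H2-Q4, another class I gene, was lower in TCZ than in TC, at 20.3 and 17 CPM against 32.1 and 34, and above control at 3.44 and 2.59. Of 35 IRF, JAK, STAT and SOCS genes 21 were higher and 7 lower (20 and 11 with library totals alone). Irf1, an early transcription factor of this pathway, rose from 9.61 and 9.82 to 127 and 108 CPM, well above TC at 26.5 and 30.9.

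**Figure D3:**
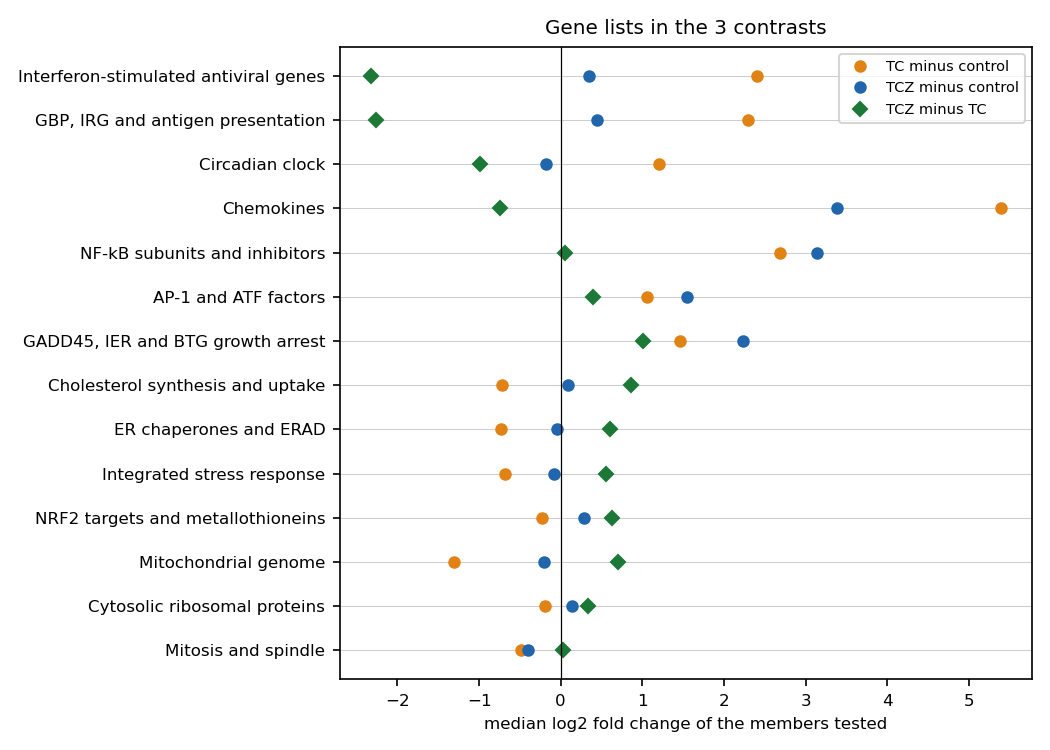
Median log2 fold change of the members tested in 14 gene lists, for TC minus control (orange circles), TCZ minus control (blue circles) and TCZ minus TC (green diamonds). The antiviral list sits at 2.41 in TC and 0.35 in TCZ, cholesterol genes at -0.72 and 0.09, and the NF-kB list at 2.69 and 3.14; the circles share their control libraries.

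Genes of sterol synthesis and of the endoplasmic reticulum (ER) were mostly higher in TCZ than in TC, and against control they went both ways. Of 30 cholesterol genes 13 were higher and 9 lower (median log2 fold change 0.09), and with library totals alone 9 were higher and 13 lower. Against TC, 26 of the 30 were higher in TCZ, where 28.2% of all genes tested were. Insig1, a sterol-regulated ER protein gene, was at 108 and 101 CPM in control, 12.8 and 12.2 in TC, against 163 and 140 in TCZ. Hmgcs1, an early enzyme of the pathway, was at 292 and 269 CPM in control and 260 and 249 in TCZ, against 43.6 and 40.3 in TC. Sqle, the squalene epoxidase gene, stayed low in TCZ, at 42.7 and 40.3 CPM against 146 and 144 in control. Among 18 fatty acid genes 8 were higher and 5 lower (5 and 9 with library totals alone), and Scd2, a desaturase, fell from 789 and 753 to 123 and 126 CPM. The 29 genes of ER chaperones and degradation had 7 higher and 7 lower (4 and 18 with library totals alone), and 24 were higher in TCZ than in TC. Hspa5, the gene of the chaperone BiP, was at 1358 and 1278 CPM in control, 798 and 783 in TC, against 2337 and 2215 in TCZ. Xbp1, which drives the unfolded protein response, fell from 111 and 101 to 12.6 and 15.7 CPM, while Ern1, which encodes the sensor that splices Xbp1 mRNA, rose from 22.6 and 21.1 to 82.4 and 82.8.

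In the integrated stress response, 9 of 34 genes were higher and 14 lower (4 and 19 with library totals alone). The transcription factor genes Atf4 and Ddit3 rose, the first from 278 and 262 to 775 and 720 CPM and the second from 49.2 and 43.5 to 177 and 148. Trib3, known as a target of both, fell from 52 and 49.4 to 4.52 and 3.48 CPM. Ppp1r15a, whose protein restores translation after stress, rose from 38.8 and 38.1 to 267 and 239, and Ddit4, an inhibitor of mTORC1, fell from 39.7 and 40.3 to 6.89 and 6.62. Factors and targets of this list therefore did not move together.

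Oxidative and metal stress genes were mostly higher in TCZ than in TC. Of 28 NRF2 targets and metallothioneins 16 were higher and 7 lower against control (13 and 9 with library totals alone). Against TC, 24 of the 28 were higher in TCZ, where 28.2% of all genes tested were. Mt2, a metal-binding protein gene, rose from 39.4 and 36.7 to 907 and 789 CPM, and Mt1 from 73.4 and 71.8 to 917 and 778. Srxn1, which repairs oxidised peroxiredoxins, was at 78.2 and 75.7 CPM in control, 68.2 and 67.8 in TC, against 291 and 266 in TCZ. Hmox1, the heme oxygenase gene, rose from 99.4 and 94.9 to 303 and 269 CPM. Nqo1, another classical NRF2 target, went down, from 26.1 and 26.5 to 12.8 and 10.3. Of 22 cytosolic heat shock genes 9 were higher and 3 lower (9 and 8 with library totals alone). Hspa1a, the inducible HSP70, rose 14.1-fold, from 3.15 and 4.91 to 58 and 52 CPM (Hspa1a and Hspa1b are near-identical copies between which reads may be split). Hspa8, the constitutive HSP70, fell from 1424 and 1101 to 418 and 334 CPM.

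Autophagy and lysosome genes moved upward as a list, by small amounts. Of 36, 27 were higher and 5 lower with a median log2 fold change of 0.36, and with library totals alone 20 were higher and 7 lower. Sqstm1, the cargo receptor p62, rose from 377 and 352 to 1450 and 1265 CPM. Ulk1, the kinase that starts autophagy, was at 30.8 and 30.2 CPM in control, 19.7 and 22.7 in TC, against 83.2 and 74 in TCZ. Its relative Ulk2 went down, from 59.5 and 54.7 to 26.2 and 25.4 CPM. Mitf and Tfeb, transcription factors of lysosome genes, also fell, Mitf from 4.93 and 4.78 to 0.33 and 0.662 CPM. In the glycolysis and hypoxia list, with 13 higher and 3 lower of 31 (10 and 12 with library totals alone), Pfkfb4, an enzyme that sets the rate of glycolysis, was the largest named fall of the whole comparison. Pfkfb4 (chr9:108988269-109032236, plus strand) was at 25 and 23.3 CPM in control, 4.68 and 4.67 in TC, against 0.474 and 0.372 in TCZ (54.7-fold lower, edgeR adjusted p = 3.03e-17).

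Growth factor receptors and 2 lists of developmental signalling had more members lower than higher. Of 28 growth factor receptor and adaptor genes 14 were lower and 9 higher (17 and 6 with library totals alone). Pdgfra, a defining receptor of fibroblasts, fell from 112 and 99.9 to 17.8 and 15.1 CPM, and Ephb4 from 74.8 and 69.7 to 7.03 and 7.65. Irs1, an insulin receptor adaptor, fell from 52.1 and 51.1 to 18.9 and 16.3 CPM while Irs2 rose from 17.1 and 15.1 to 75.8 and 76.2. In the TGF-beta and BMP list 18 of 35 were lower and 8 higher (25 and 6 with library totals alone). Tgfbr2, the type II TGF-beta receptor, fell from 138 and 136 to 40.2 and 36.6 CPM, and the BMP targets Smad6 and Id1 fell 6.64-fold and 5.63-fold. Notch, Hedgehog and Wnt genes gave 18 lower and 10 higher of 39, with Smo, the Hedgehog signal transducer, at 75.5 and 70.2 CPM in control and 19.6 and 18.5 in TCZ, and the Wnt receptor gene Fzd2 at 88 and 80.2 against 20 and 17.3.

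Matrix and cytoskeleton genes changed less in the median. Of 37 collagen and matrix genes 10 were higher and 9 lower (4 and 24 with library totals alone), and Col1a1 was at 12383 and 11503 CPM in control and 11404 and 10321 in TCZ (edgeR adjusted p = 0.112). Loxl2, a collagen crosslinking enzyme, fell from 663 and 606 to 244 in both TCZ libraries. Of 38 integrin and contractile genes 22 were higher and 8 lower (13 and 12 with library totals alone). Itgb3, the integrin beta 3 gene, fell 11.2-fold, from 144 and 131 to 12.6 and 11.9 CPM, and TC was at 11.9 and 14.4 (TCZ against TC -0.10, which missed the threshold). YAP targets and Hippo genes gave 13 higher and 9 lower of 28 (11 and 13 with library totals alone). Ctgf and Cyr61, matricellular YAP targets with many counts, rose 2.46-fold and 3.71-fold, the second from 868 and 792 to 3203 and 2949 CPM. Among genes with the most counts that fell at least 2-fold were Plec, a cytoskeletal linker (1530 and 1451 to 705 and 654 CPM), Tubb5, a beta-tubulin (1551 and 1422 to 548 and 507), and Col4a2, a basement membrane collagen (1398 and 1291 to 658 and 627).

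Cell cycle genes were lower in part. Of 35 mitosis and spindle genes 21 were lower and 2 higher, with a median log2 fold change of -0.40. Plk1, a mitotic kinase, fell from 64.7 and 57.3 to 17.1 and 14.6 CPM and Cdc25b, a phosphatase that activates CDK1, from 23.5 and 22.6 to 3.05 and 2.32. Mki67, the usual proliferation marker, was at 338 and 320 CPM in control and 336 and 347 in TCZ, and did not pass. Replication and G1/S genes were even, at 18 higher and 17 lower of 42 (10 and 19 with library totals alone). Ccnd2, the cyclin D2 gene, fell from 1174 and 1090 to 212 and 218 CPM, and Mcm10, a replication initiation factor, rose from 16.8 and 15.2 to 60.8 and 60.3. Cdkn1a, the p21 gene, rose from 297 and 271 to 970 and 868 CPM and Cdkn1b, the p27 gene, fell from 31.5 and 26.2 to 8.54 and 8.69, so the 2 inhibitors moved apart. Among 28 p53 targets 16 were higher and 9 lower (9 and 10 with library totals alone), with Mdm2 up 2.14-fold and Zmat3 down 4.11-fold. Myc rose from 87.2 and 76.9 to 565 and 505 CPM, although 8 of the 12 genes tested of its network were lower and 3 higher. Clock genes gave 7 higher and 8 lower of 18 (5 and 11 with library totals alone), against 14 higher and none lower in TC. Over all genes tested, 31.5% were higher and 29.1% lower in TC against control. Nr1d1, a clock repressor, was at 35.3 and 34.2 CPM in control, 475 and 466 in TC, against 209 and 199 in TCZ.

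Replication-dependent histone transcripts, which normally lack a poly(A) tail, rose in this poly(A)-selected RNA in nearly all members tested. Of 61 listed, 55 were tested. Of these, 53 were higher and none lower, with a median log2 fold change of 4.80 (4.60 with the 4 genes that had no count in control at their lower bound). The whole list summed to 75.3 and 67.5 CPM in control and to 1389 and 1243 in TCZ. Members with few counts in control pass the filter on low counts through the treated libraries, which limits what the count of rises shows. Hist1h3d rose from 0.35 and 0.564 to 52.2 and 46.5 CPM, with TC at 14.3 and 14.6, and Hist1h2bj from 0.454 and 0.531 to 38.9 and 37.4, with TC at 36.8 and 37.4. Histone genes have many near-identical copies between which reads may be split. Slbp, the gene of the protein that binds the stem-loop of these mRNAs, rose from 32.8 and 31 to 85 and 87.7 CPM. Against TC, 11 of the 55 were higher in TCZ and 9 lower, while 28.2% and 27.9% of all genes tested were.

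Cytosolic ribosomal protein genes moved little, while members of the ribosome biogenesis, splicing and mitochondrial lists moved further in both directions. Of 81 cytosolic ribosomal protein genes 8 were higher and none lower with a median log2 fold change of 0.14. This count rested on the scaling and on 2 libraries: without control 2 and TCZ 2 it was 49 higher, with a term that marks them 54, and with library totals alone none was higher and 17 were lower. Ribosome biogenesis genes gave 27 higher and 9 lower of 48 (20 and 18 with library totals alone), with Polr1b, an RNA polymerase I subunit, down from 37.2 and 36.5 to 11.5 and 10.6 CPM and Utp15, a processome factor, up from 38.6 and 35.1 to 107 and 105. Of 34 SR and hnRNP splicing genes 22 were higher and 5 lower (17 and 8 with library totals alone). Clk1, a kinase of SR proteins, rose from 33.4 and 35.3 to 126 and 136 CPM. Of 15 transcripts of the mitochondrial genome 7 were lower and 2 higher, and the 2 were the ribosomal RNAs mt-Rnr1, from 176 and 170 to 492 and 480 CPM, and mt-Rnr2, from 1055 and 1007 to 2009 and 2161. ND1, a subunit gene of complex I, went from 2148 and 2039 to 1362 and 1368 CPM, and TC was lower still at 892 and 801. All 15 were higher in TCZ than in TC, where 28.2% of all genes tested were. Nuclear respiratory chain genes gave 11 higher and 2 lower of 37 (3 and 7 with library totals alone), and proteasome genes 10 and 2 of 33 (6 and 16). Translation factor genes gave 21 higher and 9 lower of 43 (10 and 17 with library totals alone), snoRNA host transcripts 11 and 4 of 18, and ion channel genes 10 and 7 of 28 (6 and 15).

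**Figure D4:**
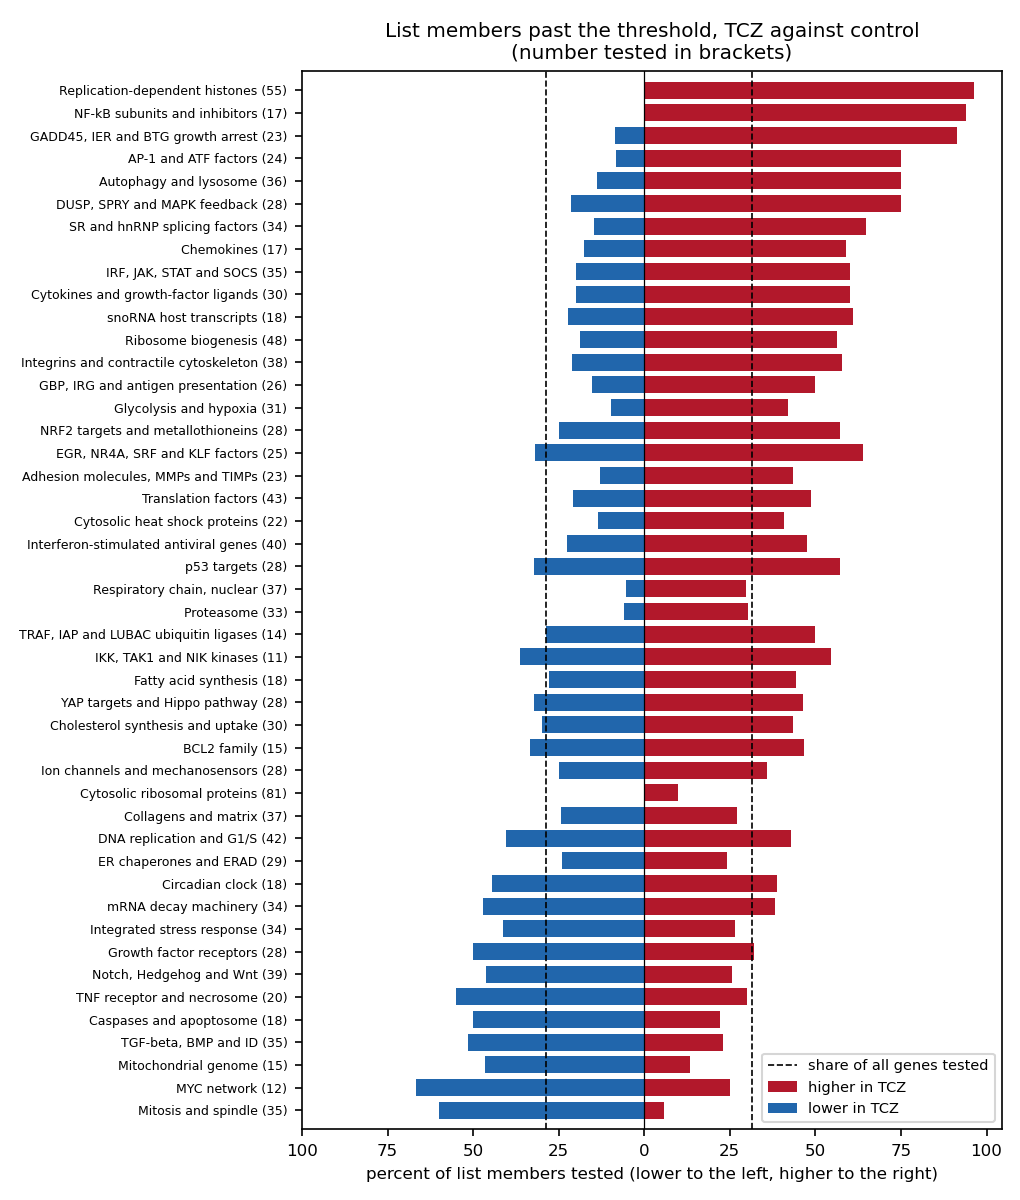
Percent of tested members past the threshold for each of the 46 gene lists, lower in TCZ to the left (blue) and higher to the right (red), sorted by the balance of both; dashed lines mark the shares of all genes tested, 28.6% lower and 31.5% higher. Histone, NF-kB and GADD45 lists lie at the top and the mitosis and MYC lists at the bottom.

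The 12 largest rises among protein-coding genes (10 CPM or more on average over the 4 libraries) held 6 genes beside the cytokine, chemokine and immediate early genes above: Gdf3, Scn4a, Fcgr1, Cilp2, Ttc21a and Tmem95. Gdf3, a TGF-beta family ligand of early embryos (chr6:122605403-122610071, minus strand), had 0 counts in all control and TC libraries and reached 22.1 and 20.6 CPM in TCZ, at least 560-fold higher than a limit of 3 counts over the control group. Scn4a, the sodium channel of skeletal muscle (chr11:106317545-106365552, minus strand), also had 0 counts in control, with 0.0618 and 0.0402 CPM in TC, against 19.2 and 20.9 in TCZ, at least 526-fold higher. Both genes were thus near or at 0 in control and TC and high in both TCZ libraries, and against TC the test gave 1.45e-15 and 1.03e-15 as edgeR adjusted p. Ttc21a, which encodes a protein of cilia, was at 0.0206 and 0.166 CPM in control, 0.103 and 0.483 in TC, against 47.8 and 47.1 in TCZ. Fcgr1, a macrophage receptor for antibodies, had 2 counts in control and 3108 in TCZ, a ratio of 1682 with an exact 95% counting interval of 465 to 13894. In Fcgr1 and Cilp2 the TC libraries were already high, at 23.6 and 23.9 and at 25.2 and 27.6 CPM. Of the macrophage and leukocyte markers, Ptprc, Adgre1 and Tyrobp did not pass, and each stayed under 1 CPM in all 4 libraries. Csf1r, Fcer1g and Laptm5 did not pass either. Itgam, Cd79a, Cd68 and Lyz2 were higher, and Cd14 was lower, from 2.45 and 2.39 to 1.01 and 1.57 CPM.

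The 12 largest falls were Pfkfb4, Trib2, Sema6d, Kif21b, Armcx4, Mgat5, Dhx32, Tmppe, Prr12, Pi15, Sema4c and Trerf1. They lay between 54.7-fold and 13.3-fold lower, and each had a level of at least 21.5 CPM in both control libraries. Sema6d and Sema4c, guidance proteins of the semaphorin family, fell from 28.1 and 29.1 to 1.05 and 1.16 CPM and from 22.5 and 21.5 to 1.59 and 1.49. Kif21b, a kinesin motor, fell from 25 and 24.5 to 0.866 and 1.12 CPM and TC was at 0.865 and 0.885 (TCZ against TC 0.13, edgeR adjusted p = 0.686). The other 11 were lower in TCZ than in TC, by between -3.54 and -1.05 log2 units. Tmppe shares its strand and position with Glb1, so that reads of these 2 genes cannot be separated here.

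**Figure D5:**
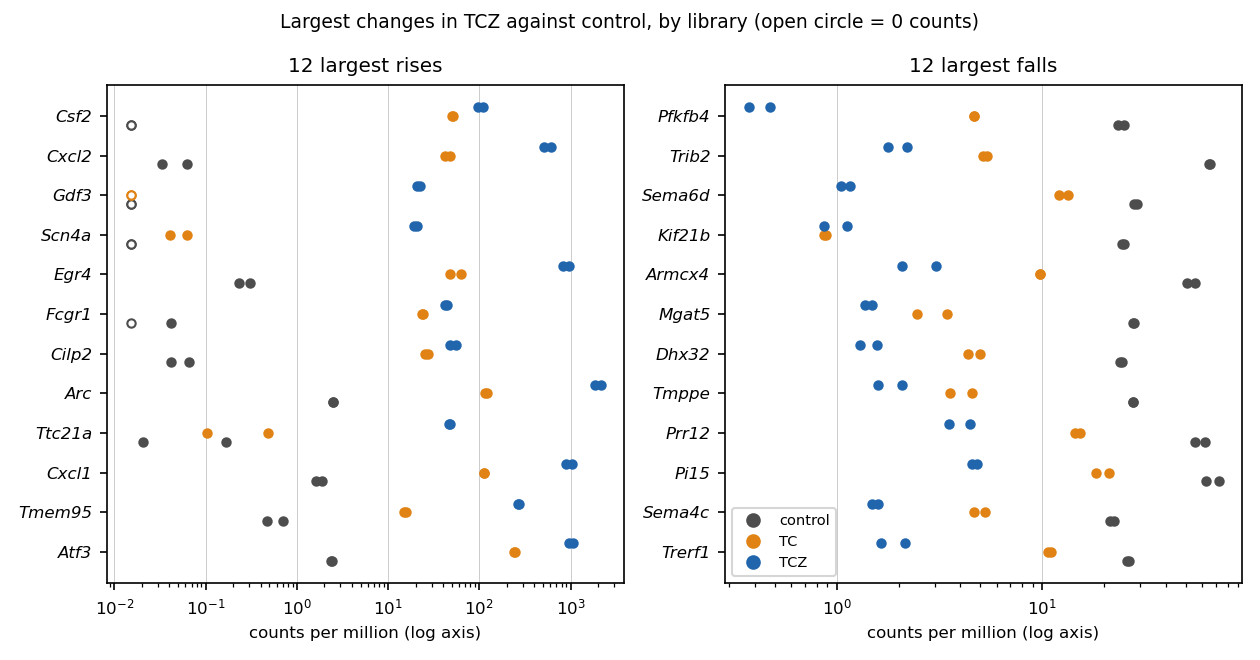
Level of the 12 largest rises (left) and the 12 largest falls (right) in each library, in CPM on log axes (grey control, orange TC, blue TCZ; open circles are 0 counts). Blue lies beyond orange on the side of the change for the genes shown except Kif21b, and Gdf3 has its TC points at 0.

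Among genes of the promoter table, NF-kB letters were found in 3 of the 10 largest rises with an entry (Cxcl2, Egr4 and Cxcl1) and in 1 of the 9 largest falls with an entry (Sema4c). No entry was found for Gdf3, Arc, Kif21b, Tmppe and Pi15. The start in the entry lay 16162 bases from the counted gene's 5′ end for Scn4a, 3633 for Pfkfb4 and 89288 for Trerf1. For the others it lay within 871 bases. Over the 982 promoters of genes at least 8-fold higher in TCZ, NF-kB letters were in 7.03%, the AP-1 letters TGANTCA in 11% and the TATA box letters TATAAA in 16%. Over the 578 promoters of genes at least 4-fold lower the shares were 5.36%, 5.19% and 8.13%, and over all 12194 promoters of genes tested they were 5.25%, 5.78% and 8.13%. Over all 27025 promoters of the table, genes not tested included, they were 4.35%, 7.93% and 14.2%. Both strands were searched, and these shares describe letters within the windows only.

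The rise of near-silent genes was examined by position. A gene was called near-silent when its mean in control was under 0.1 CPM, and 1549 such genes were higher in TCZ. Of these, 319 (20.6%) began within 20 kb after the end of another gene on the same strand that reached at least 10 CPM in TCZ, and 163 (10.5%) overlapped such a gene. Genes tested that were not near-silent had such an upstream gene in 15.2% of 16612 cases and overlapped one in 16.2%. For the 29645 near-silent genes not called higher, genes not tested included, the shares were 3.88% upstream and 9.91% overlapping. A near-silent gene passes the filter on low counts through the treated libraries where it is high, so these shares hold only for genes with reads there and test nothing. Il18r1, a cytokine receptor gene, begins 134 bases after Il1rl1 and went from 0 and 0.0995 to 15.4 and 16.2 CPM (3 counts in control, a ratio of 411 with an exact 95% counting interval of 140 to 1995), while Il1rl1 went from 395 and 383 to 1577 and 1469. Gm41199, a long noncoding RNA 792 bases after Egr3, was at 0.0412 and 0.0664 CPM in control and 19.9 and 19.8 in TCZ. Egr3 itself changed by 5.64 log2 units. Some upstream genes changed little: Cilp2 begins 396 bases after Ndufa13 (log2 fold change 0.25) and Ttc21a 11020 bases after Wdr48 (0.23). Other near-silent genes had no such neighbour, and Gdf3, Scn4a, Csf2, Fcgr1 and Pecam1 were among them. Tmem95, which was above the near-silent limit in control, is a sperm membrane protein gene (chr11:69876621-69878171, minus strand) that begins 93 bases after the end of Kctd11 (chr11:69878264-69880985, minus strand). Tmem95 rose from 0.474 and 0.697 CPM in control to 274 and 263 in TCZ, and Kctd11 from 51.4 and 45.2 to 1911 and 1757. Whether reads came from the named gene or from transcription running on from its neighbour was not tested. In all, 714 genes tested had 0 counts in both control libraries and 58 had 0 counts in both TCZ libraries. Since such genes pass the filter only through other libraries, their direction was largely set by it.

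Gene type and length moved with the direction of change. Of 14381 protein-coding genes tested 4449 were higher and 4792 lower, with a median log2 fold change of 0.00, and of 2002 lncRNA genes 802 were higher and 240 lower, with a median of 0.82. By transcript length as the table gives it, with the protein-coding genes ranked into 5 equal classes, 19.1% of the shortest and 41.3% of the longest were lower, while the share that was higher lay between 30% and 32% in each class. By level, 35.6% of protein-coding genes under 1 CPM were higher and 8.26% lower, and from 10 to 100 CPM the shares were 27.6% and 43%. A gene with few counts in control passes the filter through the libraries where it is high. The shares at low level therefore test nothing, and the same limit holds for lncRNA genes with few counts. These are descriptions across genes, which are not independent replicates, and the part of length, level and RNA quality in single results was not tested.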

How the data were processed

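Poly(A)-selected RNA of mouse embryonic fibroblasts was sequenced, per the labels' protocols. The authors deposited raw counts and RPKM values per gene, and a gene length (other), per the file headers. bcl2fastq, HISAT2 2.1.0 and HTSeq with mm10 are named in the submitters' processing notes; the sources used here do not give the strand setting, annotation or filters. Only counts were tested; the deposited RPKM values were not used in any result, and reads of overlapping or antisense genes cannot be told apart.

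Counts of all 6 libraries were fitted in R 4.3.3 with edgeR 4.0.16 (filterByExpr by group, minimum count 10; TMM; quasi-likelihood test; Benjamini-Hochberg adjustment over 18563 genes, threshold 0.05). The 3 groups left 3 residual degrees of freedom and the biological coefficient of variation was 7.38%. Levels are CPM on the TMM scale, which is not per length, so levels of different genes are not compared. SE is that of the log2 fold change. Limits against 0 use 3 counts over the group, and counting intervals (95%, exact) cover counting error only. The fit was tested on simulated data.

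Members of the 46 gene lists, the lists themselves and the tests were chosen with earlier results of these data known. Genes are named as the 12 largest rises and falls (protein-coding, mean of at least 10 CPM, no overlap), the 2 largest changes of each list, the 5 with the most counts in each direction at 2-fold or more, and 7 genes of the death pathway; any other gene was chosen with its values in view. Alternatives were DESeq2 1.42.0, limma-voom (limma 3.58.1), RLE factors, library totals, 2 other filters, only the 4 libraries, a replicate block, a term that marks control 2 and TCZ 2, thinning, leaving libraries out and a test against a fold of 2. Promoter sequences are from RefSeq (GRCm38.p6). A few genes are not reported here.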

Additional observations from a re-analysis of the deposited data

How the results depend on the processing

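With a filter of 50 counts in 2 libraries, 1898 genes were at least 2-fold higher in TCZ than in control, against 3403, and 1966 were at least 2-fold lower, against 2562; fewer genes were tested. A test against a fold of 2 gave 2626 genes higher and 1688 lower in TCZ against control, and 1126 higher and 1141 lower in TCZ against TC. The other counts of genes higher or lower stayed within 1.5 times under each alternative run. Leaving out 1 library at a time gave between 4943 and 6031 genes higher and between 4480 and 5366 lower in TCZ against control. Without control 2 and TCZ 2, 9796 genes were called, of which 9333 were also called with all libraries, each with the same sign. Library totals alone reversed the sign of genes with small changes, among them Asns (-0.13), Col1a2 (-0.17) and Rpl5 (-0.14). None of those named passed the threshold with TMM. The median of the cytosolic ribosomal protein list went from 0.14 to -0.06, and the medians of other lists also changed sign. The log2 fold change of Ifnb1 was between 0.00 (without TCZ 1) and 6.50 (without TCZ 2) with 1 library left out, and 6.61 without control 2 and TCZ 2. The labels tie no shared source to a replicate number. Deviations of same-numbered libraries correlated at 0.22 for control and TCZ, the pair whose second libraries are both shallow, and at 0.006 (control and TC) and -0.041 (TC and TCZ). With the replicate block 5854 genes were higher and 5312 lower. Depth limits genes with few counts.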
